A study of Mus musculus with 2 samples.

Results

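Of the 83676 regions in the authors' deposited list of peaks, 936 (1.12%) lay in sparse windows of the autosomes. A sparse window was a window of 1 Mb, starting at a multiple of 1 Mb, that held the midpoints of 1 to 10 peaks. Incomplete windows at the chromosome ends, with 931 peaks, were left out. There were 143 sparse windows among 2387 complete windows (5.99%), and a further 21 held no peak. The median window held 34 peaks. The peaks were thus chosen by the number of peaks around them, and their number and spacing follow from this choice. Scores and widths come from the same calling, so all values below are descriptions and none was tested.

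The list comes from ChIP-seq, in which chromatin bound by an antibody is sequenced. The cells used, MIN6-4N, are a line grown from a mouse insulinoma and had been transfected with pcDNA3.1-myc-his-HLXB9, an expression plasmid for HLXB9, and chromatin was prepared after 48 hours. Both libraries came from cells so treated. One was precipitated with an antibody against phosphorylated HB9, and the other was input chromatin without antibody. With 1 library of each kind there is no replicate error. Without a control antibody or untransfected cells, a peak cannot be assigned to phospho-HLXB9 with certainty. Tag numbers were not used here, so the depth of each peak is unknown. Each peak has a score given by the authors' peak caller, read as 10 times the negative log10 of a p-value. The lowest score in the list, 30, then equals a p-value of 1e-03. Positions are mm9.

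HLXB9 (HB9, MNX1) is a transcription factor with a homeodomain that is needed for the development of pancreatic β-cells and motor neurons. Homeodomains recognise short AT-rich sequences that are common in the genome, and such factors are mostly found on the part of their sites that lies in open chromatin. Mammalian chromosomes alternate between gene-rich, open stretches and gene-poor, compact ones, and they also hold repeated or duplicated stretches in which short reads cannot be placed with certainty. To which of these the sparse windows belong was not examined, because no mm9 sequence or annotation was used here. For the same reason no gene is named and no sequence is shown.

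Sparse windows were unevenly shared among the autosomes. Chromosome 2 held 53 of them with 328 peaks, chromosome 18 held 21 with 143 peaks, chromosome 7 held 20 with 114 peaks and chromosome 14 held 18 with 141 peaks. These 4 chromosomes made up 22.3% of the complete windows and carried 78.3% of the sparse windows and 77.6% of their peaks. On chromosome 2, 29.9% of the windows were sparse (Wilson 95% interval 23.7% to 37.1%), and on chromosome 18 the share was 24.4% (16.6% to 34.5%). Such intervals hold counting error alone, and they are too narrow because sparse windows adjoin each other. Another 31 sparse windows were spread over 11 chromosomes, with 1 window each on chromosomes 1, 10, 13 and 16. Chromosomes 9, 15, 17 and 19 had none. Without chromosome 2, 608 peaks in 90 windows remained.

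**Figure D1:**
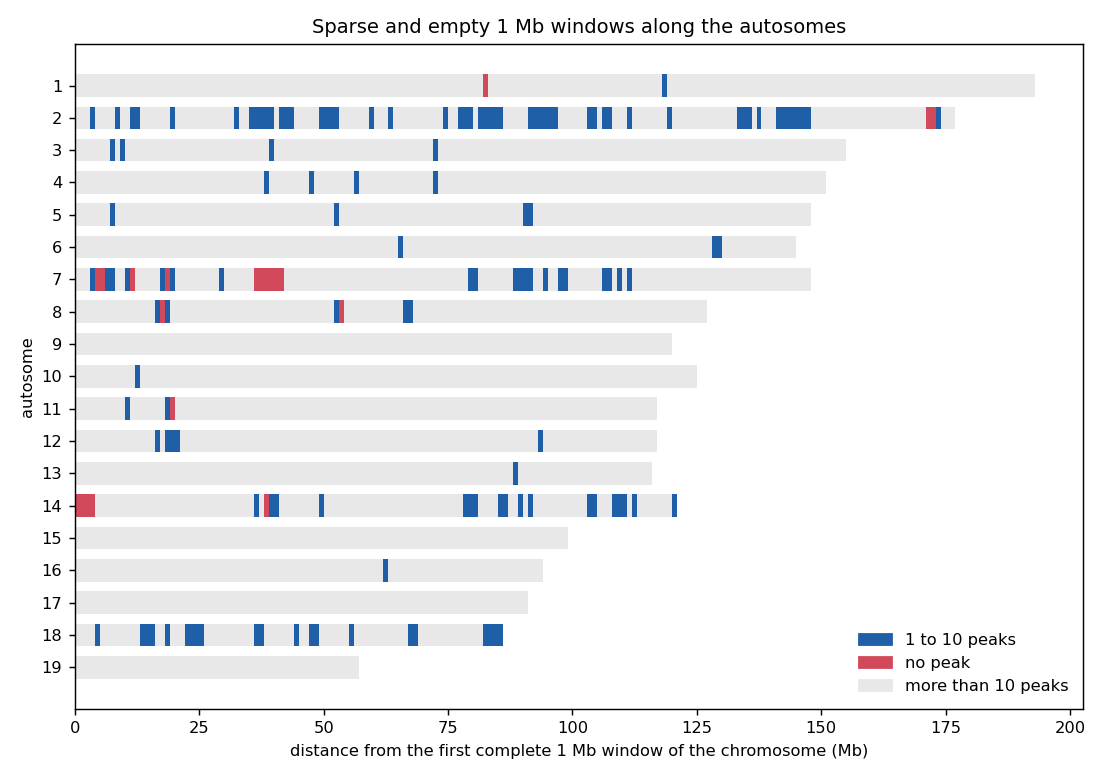
Each bar is an autosome, drawn from its first complete window of 1 Mb, with windows of 1 to 10 peaks in blue, windows without a peak in red and denser windows in grey; the horizontal axis is the distance in Mb. Sparse windows recur along chromosomes 2, 7, 14 and 18 and are absent from chromosomes 9, 15, 17 and 19.

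The 4 chromosomes differed in how their sparse windows related to the rest of the chromosome. Chromosomes 2, 18 and 14 had the lowest medians of all autosomes, 19, 22 and 25 peaks per window, whereas the median on chromosome 7 was 32. Chromosome 2 also had dense windows, with up to 90 peaks, and the densest of chromosome 7 had 86. An alternative chosen after seeing the data set the limit for each chromosome at 0.3 of its own median. Chromosome 7 then had 20 sparse windows as before, but its limit of 9.6 peaks was close to 10, so little change was possible. Chromosome 2 had 21 in place of 53, chromosome 18 had 10 in place of 21 and chromosome 14 had 6 in place of 18. Their limits were lower, 5.7, 6.6 and 7.5 peaks in the same order, so these counts could not rise. The differences between chromosomes thus follow in part from the medians that set the limits. The total fell from 143 to 89 windows. The sparse windows of chromosome 7 thus lay on a chromosome with a median near the autosomal one, and those of chromosomes 2, 14 and 18 on chromosomes with a low median. Peaks in sparse windows were 7.37% of all peaks of chromosome 2 and 7.16% of those of chromosome 18, against 4.30% on chromosome 14 and 2.50% on chromosome 7.

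**Figure D2:**
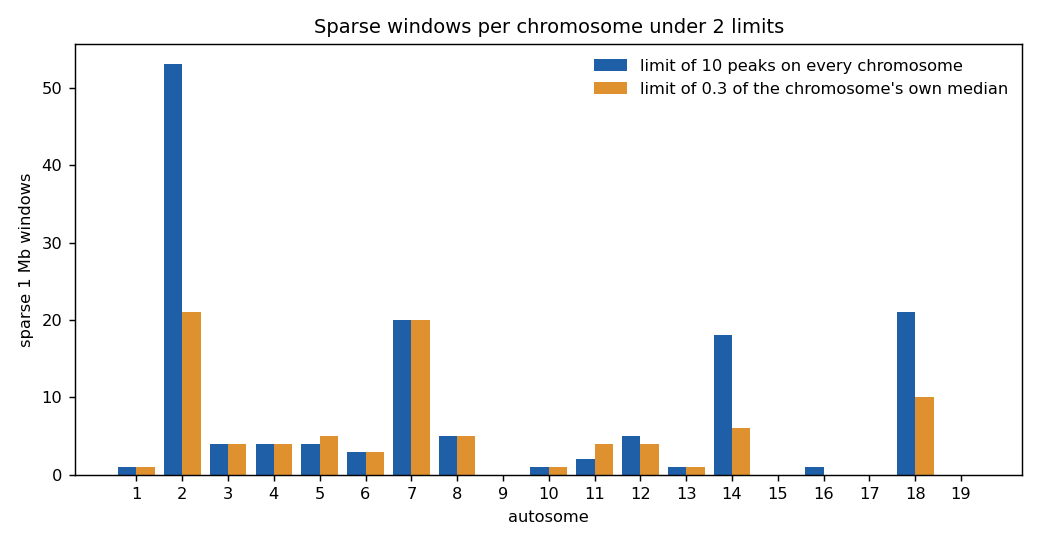
Bars give the number of sparse 1 Mb windows on each autosome, in blue under the limit of 10 peaks and in orange under a limit of 0.3 of the chromosome's own median number of peaks per window. Chromosome 7 has 20 windows under both limits, its own being 9.6 peaks, and chromosome 2, with a limit of 5.7 peaks, falls from 53 to 21.

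Most sparse windows adjoined another sparse or empty one. Runs of consecutive windows with at most 10 peaks, each with at least 1 sparse window, formed 79 blocks. Of these, 42 were single windows, 17 had 2 windows and 20 had 3 or more. The blocks of 2 or more windows held 101 of the 143 sparse windows (70.6%), and those of 3 or more held 412 of the 936 peaks (44.0%). Of the 20 longer blocks, 9 were on chromosome 2, 3 each on chromosomes 7, 14 and 18, and 1 each on chromosomes 8 and 12. Sparse stretches on the remaining chromosomes reached at most 2 windows.

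The longest block spanned 7 Mb of chromosome 2 (145000001 to 152000000) and held 38 peaks. Its windows had 7, 5, 6, 1, 1, 8 and 10 peaks in order, so the lowest counts were in the middle. The windows beside it had 20 and 23 peaks. The second block was 6 Mb long, also on chromosome 2 (95000001 to 101000000), with 29 peaks in windows of 2 to 7 peaks. It was flanked by 15 peaks before and 27 after. Blocks of 5 Mb on chromosome 2 (39000001 to 44000000 and 85000001 to 90000000) held 22 and 24 peaks. The latter had sharp borders, with 28 peaks in the window before it and 38 in the window after it, against at most 7 inside. A block of 4 Mb on chromosome 2 (53000001 to 57000000) held 27 peaks.

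Near the start of chromosome 7, blocks held 2.6 and 2 peaks per window on average and included empty windows. The block from 7000001 to 12000000 had 13 peaks over 5 windows, 2 of them empty, and the one from 21000001 to 24000000 had 6 peaks over 3 windows. The latter lay between windows of 49 and 35 peaks. A further block of chromosome 7 (92000001 to 96000000) held 25 peaks with 4 to 8 in each window. On chromosome 18, blocks of 4 Mb (26000001 to 30000000 and 86000001 to 90000000) held 25 and 29 peaks, and the second of these reached the end of the counted windows. In 8 blocks at least 1 window was empty, which accounts for 10 of the 21 empty windows. The other 11 adjoined no sparse window. Of these, 6 were consecutive on chromosome 7 (40000001 to 46000000), between windows of 12 and 16 peaks, 4 were at the start of chromosome 14 (4000001 to 8000000) and 1 was on chromosome 1 (86000001 to 87000000).

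**Figure D3:**
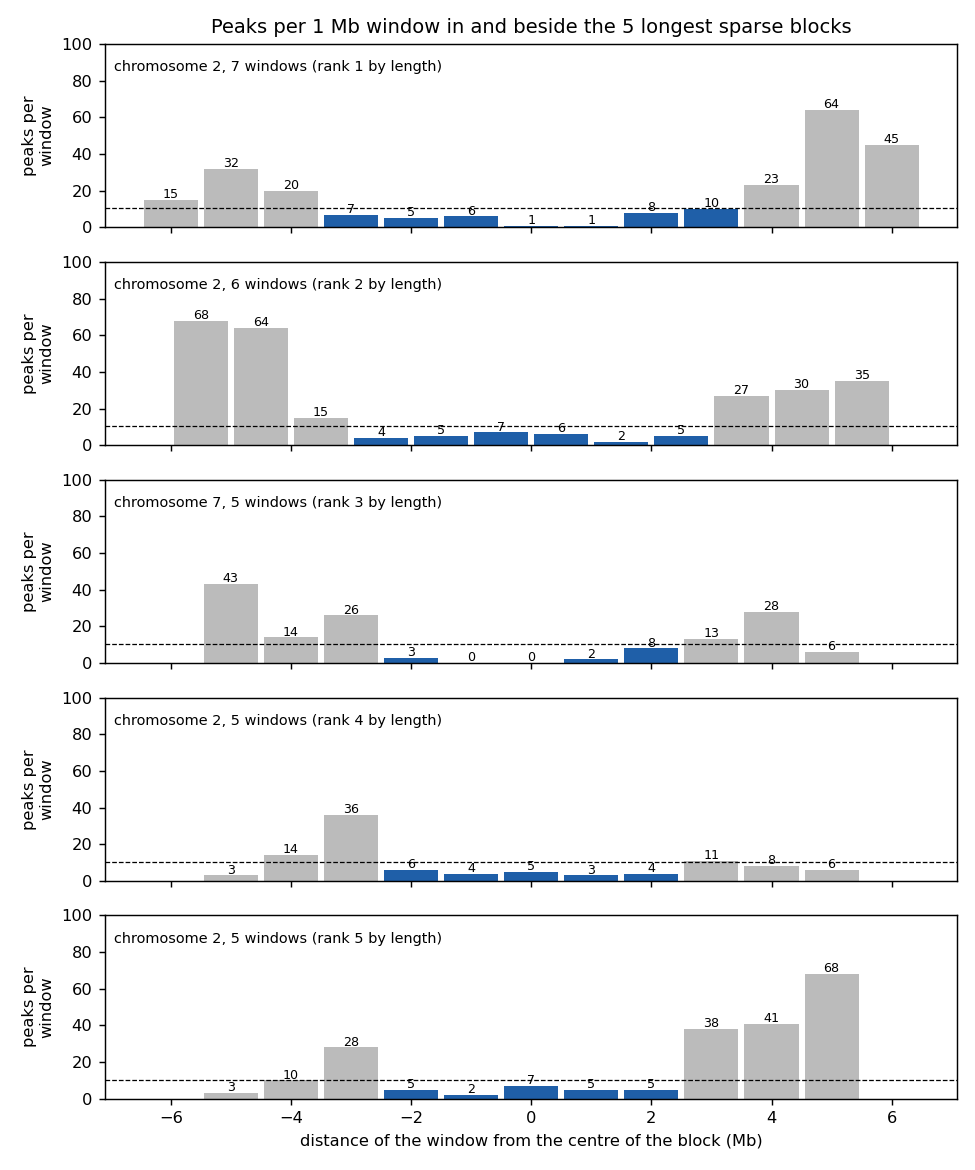
Bars give the number of peaks in each 1 Mb window of the 5 longest blocks (blue) and of the 3 windows on either side (grey, outside the block), against the distance from the centre of the block in Mb; the dashed line lies between 10 and 11 peaks. Counts inside the blocks range from 0 to 10, and the windows that touch a block range from 11 to 38. The grey windows further out range from 3 to 68, so some are sparse themselves.

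At the borders of the blocks the number of peaks fell mostly within 1 window. Around the blocks of 3 or more windows, the third, second and first windows outside had medians of 22, 23 and 23 peaks, and the first window inside had a median of 7, a step to which the limit of 10 peaks contributes by construction. Further inward the medians were 4 and 6, the latter over 7 windows. Around the blocks of 1 or 2 windows, the outside medians were 24, 23 and 19 in the same order, and the windows inside had a median of 7. Over the 156 sides of blocks with a counted window beside them, that window had a median of 20 peaks (interquartile range 14 to 28). The rule allows no value under 11, and a window between 2 blocks was counted for both. At only 21 of the 156 sides (13.5%) did it reach the autosomal median of 34. Counted in the same way, the median of the adjoining windows was 15.5 peaks on chromosome 2, 16 on chromosome 14, 20 on chromosome 18 and 24 on chromosome 7. When blocks separated by 1 denser window were joined, 2 stretches of 9 Mb appeared on chromosome 2 (39000001 to 48000000 and 81000001 to 90000000), with 56 and 72 peaks. This joining was chosen after seeing the data.

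Peaks of the sparse windows were mostly weak, as were those of the whole list. The median score was 36.7 (interquartile range 32.7 to 45.2), against 39.2 in the whole list, and 61.5% scored from 30 to 40, against 52.7% in the whole list. In all, 163 peaks scored 50 or more, which was 17.4% (Wilson 95% interval 15.1% to 19.98%), where the share over the whole list was 24.1%. It was 18.6% in windows of 11 to 20 peaks and 29.3% in windows of more than 60. For a score of at least 100, the 16 peaks found made up 1.71% (1.05% to 2.76%), next to 1.66% in the whole list. In 51 of the 143 windows (35.7%) no peak reached a score of 50, against 0.495% of the denser windows, a gap to which the smaller number of peaks per window contributes by construction.

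Shares differed more at a score of at least 200. The highest score of the list, 3100, nevertheless lay in a window of 11 to 20 peaks. Scores of at least 200 were held by 6 of the 936 peaks, or 0.641% (Wilson 95% interval 0.294% to 1.39%), where the share over the whole list was 0.114%. In windows of 11 to 20 peaks it was 0.127%, and in windows of more than 60 it was 0.0672%. Windows of 1 to 10 peaks on the X chromosome held 267 peaks, of which 0 scored 200 or more (Wilson 95% interval 0% to 1.418%). That interval includes the 0.641% of the autosomal sparse windows, so these few peaks cannot show whether the shares differ. The 6 peaks are not independent, since 2 of them lay in the same run of close peaks on chromosome 2. Without that chromosome, 3 of 608 peaks (0.493%) scored 200 or more.

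Peaks in sparse windows were narrow. Their median width was 457 bp (interquartile range 391 to 559 bp), against 657 bp in the whole list and 843 bp in windows of more than 60 peaks. A width of at least 1 kb was reached by 19 of them (2.03%), where the share over the whole list was 18.4%, and none reached 2 kb. Windows of 11 to 20 peaks were close to these values, with a median of 508 bp and 3.69% of peaks reaching 1 kb. Widths differed within ranges of score too, with all autosomes pooled, and the part of score or chromosome in this was not tested. Among peaks with a score from 30 to 40, the median width was 438 bp in sparse windows and 592 bp in windows of more than 10 peaks. From 50 to 100 it was 547 bp against 801 bp. Between scores of 100 and 200, the 10 sparse-window peaks had a median of 673.5 bp, against 1243 bp. In windows of 11 to 20 peaks the median at scores from 30 to 40 was 463 bp.

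**Figure D4:**
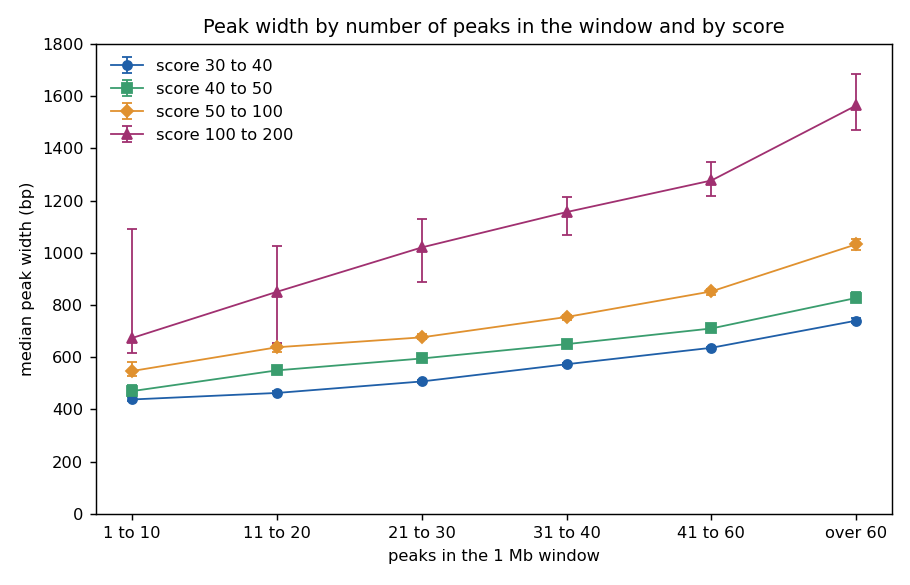
Points are the median width in bp of autosomal peaks, by the number of peaks in their 1 Mb window and in 4 ranges of score, and bars are 95% intervals of the median from order statistics, which treat peaks as independent. At a score from 30 to 40 the median rises from 438 bp in sparse windows to 740 bp in windows of more than 60 peaks, and the other ranges rise likewise.

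Widths in sparse windows varied little between the chromosomes that held most of them. The median was 464.5 bp on chromosome 2, 455.5 bp on chromosome 7, 449 bp on chromosome 14 and 439 bp on chromosome 18. The other peaks of these chromosomes had medians of 562, 685, 589 and 537 bp in the same order. In the first 58 Mb of chromosome 7, 29 sparse-window peaks had a median of 409 bp and the 1527 peaks of denser windows one of 936 bp. Beyond that position the medians were 471 bp and 617 bp. The widest sparse-window peak measured 1698 bp, on chromosome 14 (112073684 to 112075381), and scored 33.8. Next were regions of 1592 bp and 1359 bp on chromosome 6 (133984831 to 133986422 and 133941355 to 133942713), with scores of 50.6 and 77.2. These lay 42.1 kb apart, and the 2 other regions among the 5 widest belonged to the run of close peaks described below.

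At the limit of the rule, the 19 windows with 10 peaks had a median score of 36.2 and a median width of 475.5 bp, and the 24 windows with 11 peaks had 37.8 and 490 bp. The share scoring 50 or more was 22.6% in the former and 15.5% in the latter, so that it did not rise steadily with the number of peaks. Windows of 1 to 10 peaks on the X chromosome can be set beside these values. They numbered 107 of 162 and held 267 peaks, with a median width of 436 bp, 18.4% scoring 50 or more (Wilson 95% interval 14.2% to 23.4%) and 1.87% scoring 100 or more (0.802% to 4.31%). Number, width and score of peaks all depend on how many tags a region received, and since tag numbers are not known, the part of tag density in these differences was not tested.

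Peaks in sparse windows had a median distance of 43.5 kb to the nearest other peak, against 7.75 kb in the whole list. For 211 of them (22.5%) the nearest peak was more than 100 kb away, where the share over the whole list was 0.821%. Of these 211 lone peaks 34 (16.1%) had a score of at least 50, and of the other 725 peaks 129 did (17.8%). Some sparse-window peaks were close together all the same. For 27 of them (2.88%) another peak was within 1 kb, which was rarer than in the whole list, where the share was 10.99%. Inside the sparse windows lay 12 runs of such peaks. All but 1 of these runs held 2 peaks, with highest scores from 31.7 to 72.3.

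The remaining run held the strongest sparse-window peak. It was made of 4 peaks within 5.47 kb of chromosome 2 (98502107 to 98507579), in the second-longest block. In order along the chromosome they measured 1384, 884, 658 and 1273 bp and scored 40.97, 262.4, 128.9 and 520.1. The gaps between them were 0.216, 0.362 and 0.696 kb. The last of them had rank 10 in the whole list. The other 2 peaks of the window scored 35.3 and 54.9, and the next peak before the run was 627 kb away.

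Strong lone peaks, with a score of at least 100 and no other peak within 100 kb, numbered 5 in the sparse windows and 13 in the whole list (0.0155% of all peaks). Of the other 8, 5 were on the X chromosome and 3 in denser autosomal windows. All 5 in sparse windows were on chromosomes 2 and 7, and they measured between 391 and 685 bp.

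The most isolated of them lay on chromosome 2 (149350029 to 149350581). It was 553 bp wide and scored 473.7, which gave it rank 12 in the list. It was the only peak of its window and lay in the longest block. The nearest peak was 627 kb before it and scored 41.5, and the next one after it was 1095 kb away. The second, on chromosome 7 (84177217 to 84177607), was 391 bp wide and scored 343.6, with no peak for 968 kb before it and 327 kb after it. Its window held 7 other peaks, the highest of which scored 54.1. A second strong lone peak lay 881 kb further along chromosome 7 (85058422 to 85058946), in a window of 20 peaks and so outside the sparse windows, with a width of 525 bp and a score of 526.8.

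The other 3 strong lone peaks had lower scores and were wider. One on chromosome 2 (107966021 to 107966664) was 644 bp wide and scored 131.4, with 204 kb and 510.0 kb free of peaks on its sides. Another on chromosome 2 (39679001 to 39679685) was 685 bp wide and scored 123.2, at the start of a block of 5 Mb, and its nearest peak was 183 kb away. The last, on chromosome 7 (95854335 to 95854949), was 615 bp wide and scored 109.7, and its nearest peak was 216 kb away. Around each of these 3, no other peak within 1 Mb scored above 67.8.

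**Figure D5:**
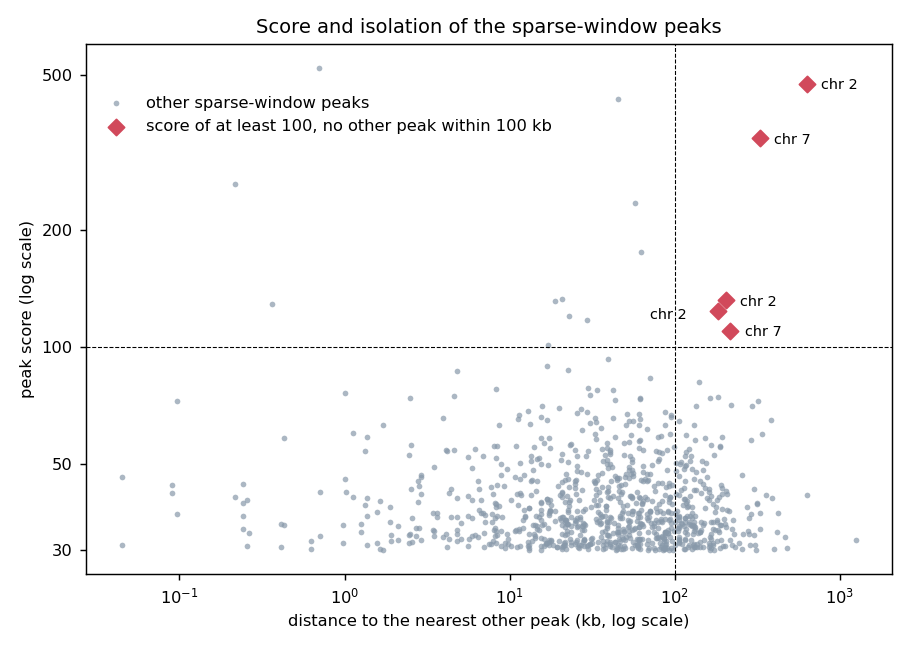
Each point is 1 of the 936 sparse-window peaks, with the distance to the nearest other peak in kb and the peak score, both on log scales; red diamonds are the 5 strong lone peaks and dashed lines mark 100 kb and a score of 100. Most points lie below a score of 50 at any distance, and the strongest lone peak lies at 627 kb and 473.7.

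Another 11 peaks scored 100 or more but had neighbours within 100 kb. Of these, 3 belonged to the run on chromosome 2. On chromosome 1 (122180047 to 122180432) a peak only 386 bp wide scored 432.3, in the only sparse window of that chromosome. Its nearest peak was 45.0 kb away, and no other peak within 1 Mb scored above 60.1. In the only sparse window of chromosome 13, a 700 bp region (92813569 to 92814268) scored 233.9, and the highest of the other 8 peaks of the window scored 49.97. Within 1 Mb it had 50 other peaks, the highest of which scored 89.6 at a distance of 394 kb. On chromosome 18 a peak of 615 bp (59545969 to 59546583) scored 175.1 among peaks of at most 62.9 in its window, while a region with a score of 175.1 also lay 884 kb before it in a denser window (58661273 to 58662165). Regions of 995 bp on chromosome 2 (83484481 to 83485475) and of 1090 bp on chromosome 8 (20019706 to 20020795) scored 132.3 and 131.0. The latter was followed by 2096 kb without a peak, and on its other side the nearest peak was 18.9 kb away. This chromosome 8 peak had 6 other peaks within 100 kb, and the highest other score within 1 Mb, 98.7, lay 774 kb away.

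Of the 5 peaks farthest from any other, 4 were weak. The first, on chromosome 7 (21896876 to 21897375), was 500 bp wide and scored 31.8, and it had no peak for 1246 kb before it and 1666 kb after it. The peak of chromosome 2 that scored 41.5 (148722722 to 148723267) was the weak neighbour of the strongest lone peak and was itself 627 kb from it. Regions on chromosome 6 (133055085 to 133055575) and chromosome 2 (36645236 to 36645608) scored 30.4 and 32.4 and were 475 kb and 466 kb from the nearest peak. Strong lone peaks were thus 5 of the 211 lone ones, and 177 of these scored under 50. In the whole list, 13 of the 687 lone peaks were strong.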

How the data were processed

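The authors made the list with MACS, whose version is written as 1.42, on build mm9, per the submitters' processing notes. It was taken to compare ChIP with input, since the series has 1 library of each. The aligner and read filters, not given in the sources used here, could change the list. The score column deposited by the authors has no header. It was read on this caller's usual scale, minus 10 times the log10 of a p-value. It is used only to describe and rank peaks within the list. Peaks numbered 83676, with 0 breaks in the running numbers and 0 overlaps.

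Windows, blocks, widths and gaps (bases between the ends of 2 peaks) were computed in Python 3.11.15 (pandas 2.3.3, numpy 2.4.6, scipy 1.17.1) and drawn with matplotlib 3.10.9. Window counts, members, blocks and the number of neighbours within 100 kb were tested on simulated data. Widths, distances to the nearest peak and intervals were not. Shares have Wilson 95% intervals. Medians in the width plot have order-statistic intervals. Both treat peaks as independent. The members, the limits and the alternatives were chosen with earlier results of these data known. By rule, the text names the 10 longest blocks (of the 11 blocks of 3 windows, only the one with the fewest peaks per window), the 10 highest-scoring, 5 widest and 5 most isolated members, and all strong lone peaks. The runs of empty windows, joined blocks, run of close peaks and neighbouring peaks named beside these were chosen after their values were seen. Coordinates are printed 1-based. Sequence and motif steps were not run, since they need an mm9 genome, which was not used here.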

Additional observations from a re-analysis of the deposited data

How the results depend on the processing

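Of 59 values under alternatives, 34 stayed within 1.5 times the reported count or inside the 95% interval of the reported share or median, and 25 did not. Some alternatives alter what is counted, such as the score threshold or the window size, so the tally is not a measure of robustness. An upper limit of 5 peaks left 179 peaks in 49 windows and 34 blocks of up to 4 Mb, with a median width of 442 bp and 1 strong lone peak. A limit of 14 gave 2119 peaks in 237 windows and 123 blocks, with a median of 474 bp. Windows of 2 Mb with 1 to 20 peaks gave 52 windows, 37 blocks, a median of 470 bp and 2 strong lone peaks. At a threshold of 100 in place of 50, 1.71% passed, and the median width was 438 bp when restricted to scores of 30 to 40. Strong lone peaks numbered 2 at a distance of 250 kb, 34 at a score of 50 and 2 at a score of 200. A limit of 0.3 of each chromosome's median, chosen after seeing the data, gave 502 peaks, 89 windows and 3 strong lone peaks. Leaving out chromosome 2, also chosen then, gave 608 peaks, 90 windows and 2 strong lone peaks. Windows shifted by 500 kb moved none of the 7 values out of these ranges. No paired analysis was possible because there is 1 library per group, and no library could be left out. As tag numbers are unknown, an empty window shows only that no region in it was called.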

Other observations

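Sparse windows of chromosome 12 held 24 peaks, of which 10 had a score of at least 50 (41.7%, against 17.4% of all sparse-window peaks). The share was 24.1% over the whole list and 23.1% in denser windows of chromosome 12. In the sparse windows of the other chromosomes it ranged from 0% on chromosomes 10 and 11 to 37.5% on chromosome 1. The chromosome 12 windows were picked after their values were seen. A block of 3 windows (22000001 to 25000000) held 7 peaks with a median score of 55.4, and 4 of the 7 scored at least 50, the highest being 83.2 (23217308 to 23218069). It lay between windows of 29 and 41 peaks. A single sparse window close by (20000001 to 21000000) held 10 peaks, among them regions of 1093 bp (20317728 to 20318820) and 1064 bp (20653264 to 20654327) that scored 116.8 and 119.7 and were 334 kb apart. On chromosome 3, a 662 bp region (43583830 to 43584491) with a score of 100.7 was the last above 100 in the sparse windows.

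Sparse blocks with empty windows and dense borders were also found on chromosome 8 (20000001 to 23000000), with 11 peaks between windows of 33 and 41, and near the end of chromosome 2 (175000001 to 178000000), with 9 peaks between windows of 41 and 50. These, too, were picked for their values.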
